A study of Mus musculus with 12 samples.

Results

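The semaphorins with their plexin and neuropilin receptors, the ephrins with their Eph receptors, and SLIT2, SLIT3, ROBO1 and ROBO2 are cell guidance genes, and they were followed here in the somatic cells of the fetal mouse gonad. The members of these families were picked by gene symbol, which gave 57 of the 32285 genes in the count tables. They comprise 7 class 3 semaphorins, 13 semaphorins of classes 4 to 7, 9 plexins, 2 neuropilins, 5 ephrins of the A type, 3 of the B type, 9 EphA and 5 EphB receptors, 2 SLIT ligands and 2 ROBO receptors. A filter on low counts left 56 of them in the tests. Plxnb3, an X-linked plexin, was the exception and was at or near 0 in all libraries. Single-cell RNA sequencing had been done on gonads at E12, dissected free of the mesonephros, from 6 groups with 2 libraries each: XX WT, XY WT, XX -KTS KO, XY -KTS KO, XX +KTS KO and XY +KTS KO. WT1 is a zinc finger transcription factor made as variants with (+KTS) or without (-KTS) 3 amino acids between its last zinc fingers. The -KTS KO embryos carried, on both Wt1 copies, an allele that cannot make the -KTS variant. The +KTS KO embryos were homozygous for the Frasier allele, which blocks +KTS, and the study describes more -KTS in its place. All embryos were on a mixed B6CBAF1/JRj background, and the alleles act in every cell that uses Wt1. Gonads of several embryos were pooled for the -KTS KO libraries, whereas the other libraries each came from single embryos, and those of the +KTS KO groups differed in tail somite number, so that stage varied within these groups.

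Semaphorins are secreted or membrane-bound ligands that signal through plexins, and most class 3 members need a neuropilin as co-receptor. Ephrins sit on the cell surface and bind Eph receptor tyrosine kinases on the neighbouring cell, so both partners can signal, and SLIT proteins are secreted ligands of ROBO receptors. These systems steer axons, but they also direct cell sorting, blood vessel growth and epithelial boundaries, and SLIT and ROBO genes are known from the developing gonad and urogenital tract.

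The stretch of 250 bases before the transcription start is printed for 4 of the members that passed the test in both sexes of -KTS KO gonads, since WT1 is known to bind GC-rich DNA. These 4 are examples picked by no stated rule. Efna4, which also rose in both sexes, held none of the motifs marked below. Slit2 (chr5:47982905-47983154, plus strand) and Efna5 (chr17:62881318-62881567, minus strand) rose in that mutant. Sema7a (chr9:57939862-57940111, plus strand) and Sema3g (chr14:31217623-31217872, plus strand) fell. Sequences are RefSeq promoters of GRCm38.p6, written 5′ to 3′ along the gene. Capitals mark the motifs GCGGGGGCG and GGGCGG on either strand, which can overlap each other and are then joined.
Slit2: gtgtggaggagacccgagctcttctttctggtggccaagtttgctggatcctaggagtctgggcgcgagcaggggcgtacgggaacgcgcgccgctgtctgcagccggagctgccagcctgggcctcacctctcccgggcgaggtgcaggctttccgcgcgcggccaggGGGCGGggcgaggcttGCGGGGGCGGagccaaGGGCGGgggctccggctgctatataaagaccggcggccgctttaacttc
Efna5: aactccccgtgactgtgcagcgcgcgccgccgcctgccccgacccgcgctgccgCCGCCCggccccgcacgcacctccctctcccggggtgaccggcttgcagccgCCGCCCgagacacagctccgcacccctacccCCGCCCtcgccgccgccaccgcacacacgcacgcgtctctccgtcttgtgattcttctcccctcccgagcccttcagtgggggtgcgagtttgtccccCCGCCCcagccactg
Sema7a: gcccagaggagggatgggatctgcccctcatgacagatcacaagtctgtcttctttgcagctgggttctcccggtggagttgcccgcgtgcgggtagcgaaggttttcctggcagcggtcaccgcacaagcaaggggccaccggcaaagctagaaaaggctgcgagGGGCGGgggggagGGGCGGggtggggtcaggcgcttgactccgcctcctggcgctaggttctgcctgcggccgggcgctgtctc
Sema3g: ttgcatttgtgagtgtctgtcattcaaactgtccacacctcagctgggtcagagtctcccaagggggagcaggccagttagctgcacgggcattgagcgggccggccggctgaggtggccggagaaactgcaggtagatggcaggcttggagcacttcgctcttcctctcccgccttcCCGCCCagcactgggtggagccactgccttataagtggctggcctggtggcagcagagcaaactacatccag
GCGGGGGCG was present before the start of Slit2, but not in the other sequences shown. It was found in 6 of 67 member promoters (8.96%), those of Epha1, Epha8, Plxnb2, Sema4g, Sema5a and Slit2, against 2.57% of all 32851 promoters of that length. GGGCGG, a general GC box, was in 48 of 67 member promoters (71.6%) and in 32.7% of all promoters. GCGTGGGAG, the sequence usually given for the -KTS protein, was in 0 of 67 and in 0.405% of all, and TATAAA was in 2 of 67 (2.99%) and in 12.4% of all. The 67 promoters belong to 51 members, with no entry for Efnb3, Plxna1, Plxna4, Sema3b, Sema3f and Sema6a. A match only says that these letters stand in the window.

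The deposited counts covered 103730 barcodes, of which 76976 were kept and 66213 were gonadal somatic cells after germ, endothelial, immune, blood and duct clusters had been set aside. These still include cluster 31, whose 94 cells all came from XY +KTS KO and were led by muscle genes (Actc1, Myog and Mylpf), and the shallow, unnamed clusters 15 and 26 (2363 and 477 cells). Leaving out these 3 clusters ended 0 of the 66 named calls. Of the 63 mesonephric duct cells that were set aside, 62 came from XY +KTS KO. No cluster was called perivascular, so such cells stayed in the sums. An alternative clustering on log-normalized counts set aside perivascular clusters of 1258 and 741 cells. Of the 1258, 13 came from XX -KTS KO and 0 from XY -KTS KO. Of the 741, 733 came from XY +KTS KO, led by Hoxc10, Hoxa10 and Hoxa9. Sums from that clustering ended 3 of the 66 named calls. Somatic sums held 57073030 to 99629558 UMIs (unique molecules) per library, and levels are given as CPM, the UMIs of a gene divided by all somatic UMIs of its library and scaled to a common total, with libraries adjusted by edgeR. Levels by cell class were divided by the UMIs of that class in the library instead. Neither these nor the sums of marker lists were adjusted by edgeR. Xist and Ddx3y matched the labelled sex in all 12 libraries. Wt1 stood at 171 to 305 CPM everywhere, and its 3′ tags cannot tell the splice variants apart. The summed level of 7 Sertoli markers was 1403 and 1615 CPM in XY WT against at most 246 elsewhere, that of 5 pre-granulosa markers was 981 and 1006 CPM in XX WT against at most 350, and endothelial and immune lists stayed at or below 57.1 and 3.07 CPM in all libraries. Other lists varied more. Germ cell markers ran from 14.3 to 82.1 CPM (14.3 and 69.2 CPM in the XX -KTS KO libraries), erythrocyte markers from 107.7 to 875 CPM (107.7 to 233.5 in -KTS KO, 315 to 875 in WT), and mesonephric duct markers stood at 146 and 120 CPM in XX WT against 37.1 to 109.7 CPM elsewhere. Of the duct cells set aside, 0 came from XX WT. The duct list holds Pax8 and Calb1, which were also leading genes of clusters kept in the sums. Pax8 was so in the unnamed cluster 24, with 556 of 619 cells from XX WT. Calb1 was so in the interstitial progenitor-like cluster 22, with 513 of 929. Perivascular markers ran from 19.4 to 45.9 CPM, and neural crest markers were at 5.33 and 6.93 CPM in the XX WT libraries, 14.8 and 19.9 CPM in the XY WT ones, 8.06 to 23.03 CPM in -KTS KO and 3.62 to 5.26 CPM in +KTS KO, so that they were higher in XY WT and -KTS KO, as were Epha4, Robo1 and Robo2. Among lists of the gonadal cells themselves, 6 pre-supporting markers summed to 346 to 516 CPM in the 4 -KTS KO libraries against 705 to 1391 CPM in all others, and 7 interstitial progenitor markers were at 829.5 and 611 CPM in XX -KTS KO and 899 and 733 CPM in XY -KTS KO, against 423 and 412 CPM in XX WT with 815 and 521 CPM in XY WT. The part of these in the results was not tested. No pair of libraries shared more than 35 barcodes (0.388% of the smaller). The XY +KTS KO libraries stood apart from each other, with the largest median difference between replicates (0.30 on the log2 scale, against 0.12 to 0.21 elsewhere). In replicate 1, 3161 cells lay in clusters called pre-granulosa-like, against 13 in replicate 2. In clusters called pre-supporting-like the order was reversed, with 89 cells in replicate 1 and 2827 in replicate 2. The XX +KTS KO libraries held 41 and 6 pre-granulosa-like and 3733 and 1631 pre-supporting-like cells. These counts follow the name each cluster was given, so they do not count a cell type. Immediate early genes were among the leading genes of the main clusters of replicate 1. A lower sum can mean fewer cells of a type or less RNA per cell, and the sums alone cannot tell these apart. With only 2 libraries a group, the spread was estimated over all 12 libraries in 6 groups together. The p-values therefore rest on the spread between replicate libraries of all groups, not only of those compared.

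At least 1 member passed in every family after loss of -KTS, apart from the plexins in XX gonads and the ROBO receptors in XY gonads. Some families were near the share of all genes given below. Of 5 EphB receptors 1 passed in XX, and of 8 plexins 1 was higher and 1 lower in XY. In ephrins of the B type and in the neuropilins only 1 member passed in each sex. Of 56 members tested, 23 passed an FDR of 0.05 in XX -KTS KO against XX WT (13 higher and 10 lower), which is 41.1% of the members where 16.2% of all 17716 genes were called (6.72% higher and 9.51% lower). In XY -KTS KO against XY WT, 24 passed (13 higher and 11 lower, 42.9%), against 23.4% of all genes (11% higher and 12.4% lower). The median absolute log2 fold change of the members was 0.70 in XX and 0.68 in XY, and that of all genes 0.34 and 0.41. Across both sexes, 35 members passed in at least 1, where 30.7% of all genes did. Of the 56 members, 7 were higher in both (Efna3, Efna4, Efna5, Efnb3, Sema6a, Slit2 and Slit3; 4.05% of all genes), 4 were lower in both (Sema3g, Sema4a, Sema5b and Sema7a; 4.6% of all genes), and Epha7 was lower in XX and higher in XY (0.344% of all genes moved in opposite directions).

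**Figure D1:**
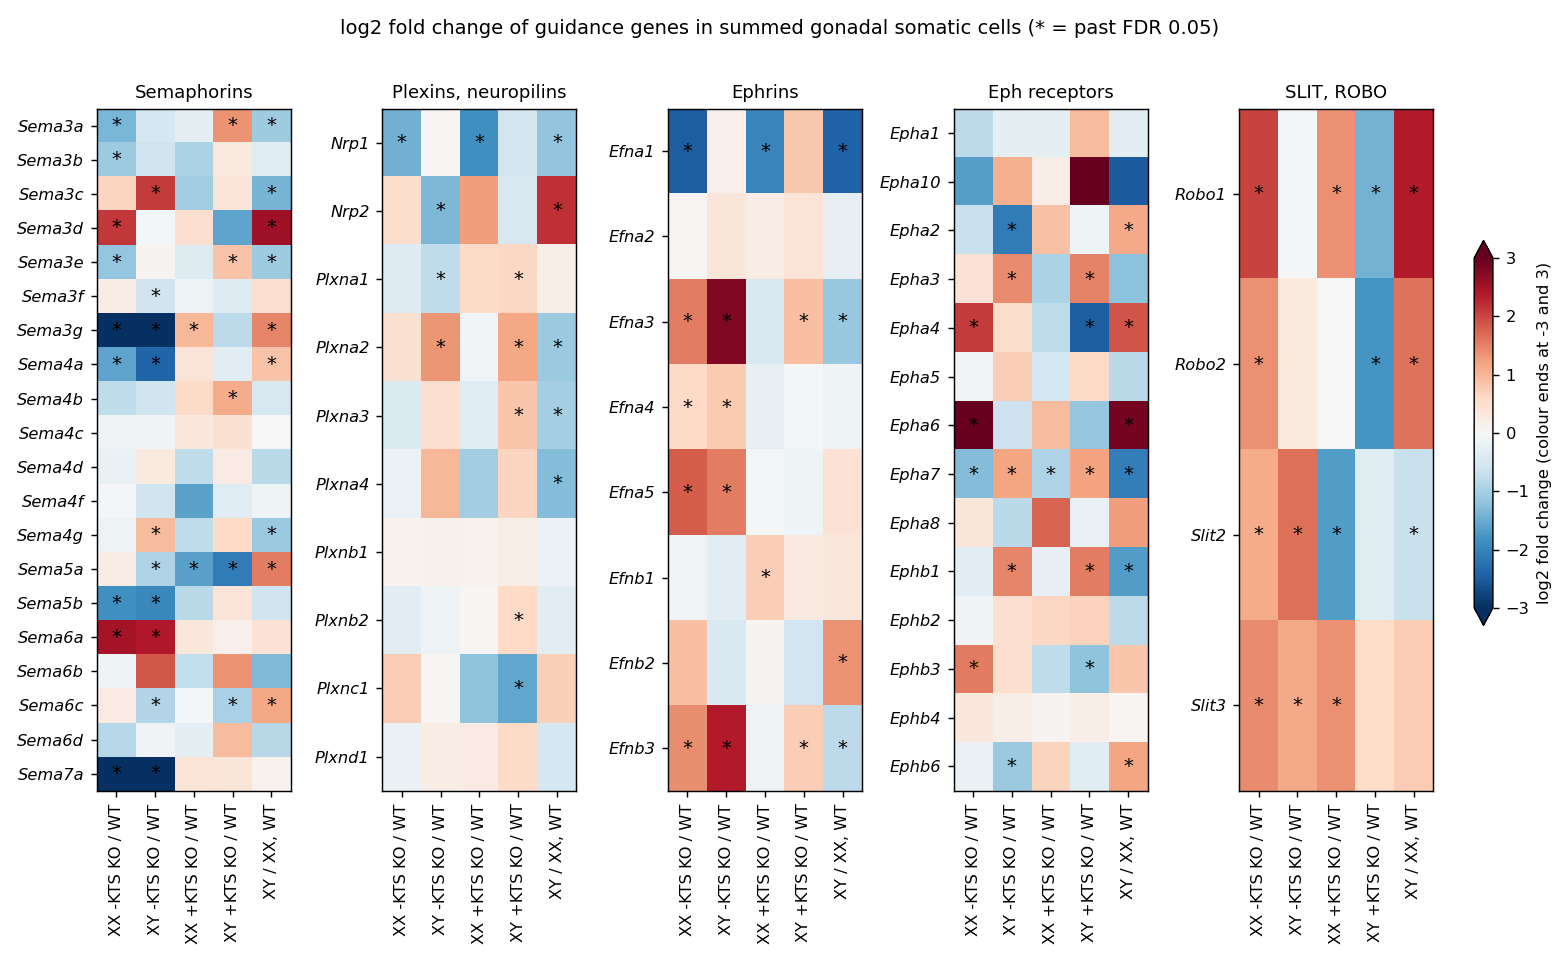
Heat map of the log2 fold change (colour scale) of the 56 members tested, 1 row per gene grouped by family, in 5 comparisons of somatic sums (columns), with a star where the gene passed an FDR of 0.05. The -KTS KO columns hold 23 stars in XX and 24 in XY, the +KTS KO columns 9 and 19, and the column for XY WT against XX WT holds 27.

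Both SLIT ligands rose. Interstitial progenitor markers were also higher in XX -KTS KO than in XX WT, and their part in these values was not tested. That class holds Slit2 and Robo2 in WT, but Slit2 was not particular to it. In XX WT, coelomic epithelium-like cells held Slit2 at a similar level (given below). Slit2 stood at 22.3 and 22.3 CPM in XX WT and at 52.8 and 43.3 CPM in XX -KTS KO, a 2.16-fold rise (log2 fold change 1.11 ± 0.18 (SE), adjusted p = 0.00323). In XY it went from 13.3 and 14.8 CPM in WT to 40.8 and 46.7 CPM in the mutant, 3.12-fold (1.64 ± 0.18, adjusted p = 0.000309). The mutant libraries lay above all WT libraries of both sexes. Slit3 was at 2.44 and 4.34 CPM in XX WT against 9.53 and 8.57 CPM in XX -KTS KO (2.66-fold, adjusted p = 0.0126), and at 6.47 and 5.05 CPM in XY WT against 12.2 and 13.2 CPM in the mutant (log2 fold change 1.14). Their receptors passed the test in XX and not in XY, and that difference between the sexes was itself past the threshold for Robo1 but not for Robo2. Robo1 was at 5.78 and 6.35 CPM in XX WT and at 25.8 and 23.9 CPM in XX -KTS KO (4.10-fold, adjusted p = 0.000324), and Robo2 went from 16.6 and 17.1 to 38.5 and 48.8 CPM (log2 fold change 1.37). The XY WT libraries already held 28.4 and 34.3 CPM of Robo1 and 58.9 and 45.4 CPM of Robo2, and XY -KTS KO overlapped them at 26.5 and 33.8 CPM and at 57.1 and 70.1 CPM.

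Among semaphorins, only the membrane-bound Sema6a was called higher in both sexes. XX WT libraries held 4.54 and 6.94 CPM and XY WT libraries 7.43 and 8.21 CPM, whereas XX -KTS KO held 33.8 and 30.7 CPM, with 34.9 and 47.6 CPM for XY -KTS KO. That is 5.61-fold in XX (log2 fold change 2.49 ± 0.27, adjusted p = 0.000513) and 5.28-fold in XY (2.40 ± 0.27, adjusted p = 0.00031), with no overlap between mutant and WT. Sema7a, a semaphorin held on the membrane by a lipid anchor, went the other way. From 3.40 and 6.18 CPM in XX WT it went to 0.748 and 0.319 CPM in XX -KTS KO. From 4.05 and 6.26 CPM in XY WT it went to 0.313 and 0.708 CPM in the mutant. The fall was 8.76-fold in XX (adjusted p = 0.00279) and 9.98-fold in XY (log2 fold change -3.32, adjusted p = 0.00136). The XY log2 value was -4.04 without XY -KTS KO replicate 2 and -2.63 when all kept cells were summed.

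Sema4a and Sema5b, both membrane semaphorins, fell as well. Sema4a was at 2.66 and 3.24 CPM in XX WT against 1.07 and 0.887 CPM in the mutant (log2 fold change -1.59), and at 5.69 and 5.07 against 1.14 and 0.903 CPM in XY (5.27-fold lower, adjusted p = 0.0003). Sema5b was at 16.0 and 16.2 CPM in XX WT against 3.94 and 5.04 CPM in the mutant (3.60-fold lower, adjusted p = 0.0116). In XY it was at 8.24 and 13.2 against 2.95 and 2.64 CPM (3.83-fold lower, adjusted p = 0.00682). For neither gene did a mutant library reach the lowest WT library of its sex.

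The secreted class 3 semaphorins split. Sema3g, whose level lay under the 5 CPM that the rule for naming required and which was singled out after its values were seen, was nearly gone. The XX WT libraries held 1.20 and 1.51 CPM and the XY WT libraries 3.30 and 4.21 CPM, and only 5 UMIs were left over both XX -KTS KO libraries and 8 over both XY ones, where WT held 219 and 503. With libraries scaled alike, the WT to mutant ratio was 39.7 in XX (95% Clopper-Pearson interval 16.7 to 123.4) and 69.1 in XY (34.8 to 161), which covers counting error only. Sema3c rose in XY from 5.90 and 9.60 CPM to 31.7 and 34.4 CPM (4.26-fold, adjusted p = 0.00173), and Sema3d rose in XX from 1.71 and 2.05 CPM to 9.01 and 7.45 CPM (4.36-fold, adjusted p = 0.0152). Sema3a, Sema3b and Sema3e fell in XX, with log2 fold changes of -1.38, -1.09 and -1.17.

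**Figure D2:**
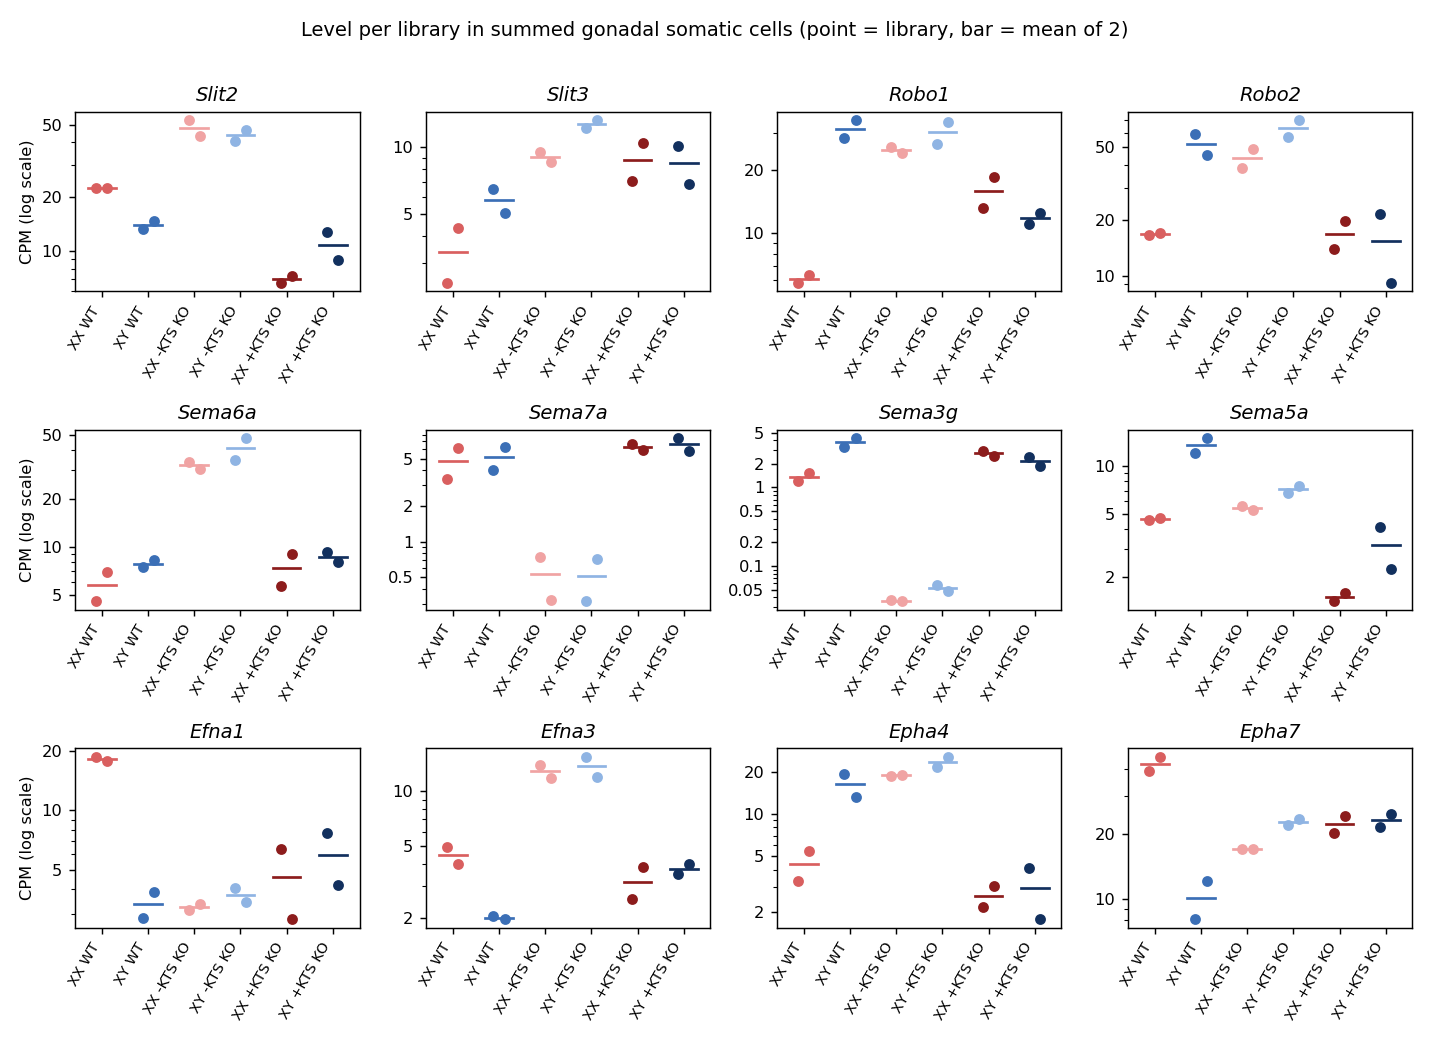
Level of 12 members in CPM (log axis) in the summed somatic cells of each library, with 1 point per library and a bar at the mean of 2, by group. Slit2 and Sema6a in the 4 -KTS KO libraries lie above all other libraries, and Sema7a and Sema3g in the same libraries lie below all others.

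Ephrins of the A type rose, apart from Efna1 and Efna2. Efna3, which like all A-type ephrins is anchored in the membrane by a lipid, stood at 4.94 and 3.998 CPM in XX WT and 13.9 and 11.9 CPM in XX -KTS KO (2.89-fold, adjusted p = 0.00212). In XY it went from 2.05 and 1.98 CPM to 15.5 and 12.02 CPM, 6.83-fold (adjusted p = 7.98e-05). Efna5 was at 2.08 and 4.39 CPM in XX WT and 14.1 and 8.68 CPM in the mutant (3.50-fold, or 1.81 on the log2 scale and 2.44 without XX WT replicate 2, adjusted p = 0.00692), and at 4.80 and 3.996 against 11.5 and 13.9 CPM in XY (2.88-fold, adjusted p = 0.01). Efna1 fell in XX from 18.7 and 17.7 CPM to 3.17 and 3.39 CPM, 5.56-fold (log2 fold change -2.48, adjusted p = 0.00276), and the log2 value was -1.51 when all kept cells, endothelial ones included, were summed. The XY libraries were low in both genotypes, at 2.86 and 3.89 CPM in WT and 4.09 and 3.45 CPM in -KTS KO. Efna1, Efna3 and Efna4 are neighbours on chromosome 3 of GRCm38, at 89271733-89281142, 89313899-89322965 and 89333390-89338028, all on the minus strand, and in XX the first fell while the other 2 rose.

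The transmembrane ephrin Efnb3 rose in XY from 5.25 and 4.87 CPM to 26.4 and 26.5 CPM (5.23-fold, adjusted p = 9.07e-05) and in XX from 7.66 and 9.74 CPM to 26.6 and 19.0 CPM (log2 fold change 1.39). Among Eph receptors, Epha4, which binds ephrins of both types, rose in XX from 3.33 and 5.48 CPM to 18.6 and 19.0 CPM (4.26-fold, adjusted p = 0.00592), while XY WT at 19.3 and 13.2 CPM and XY -KTS KO at 21.4 and 25.6 CPM did not pass the test. Epha7 fell in XX from 39.0 and 45.7 CPM to 17.1 and 17.1 CPM, and rose in XY from 8.08 and 12.1 CPM to 22.1 and 23.6 CPM, so that the mutants of both sexes lay between the WT sexes.

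Of the co-receptors, Nrp1 fell in XX from 14.6 and 20.4 CPM to 7.21 and 5.75 CPM (2.70-fold, adjusted p = 0.0133), and Nrp2 fell in XY from 9.78 and 6.19 CPM to 3.36 and 2.93 CPM (2.54-fold, adjusted p = 0.0363). Of the plexins, 0 of 8 passed the threshold in XX and 2 of 8 in XY, beside the 16.2% and 23.4% of all genes, and in XY Plxna2 was higher (log2 fold change 1.33) and Plxna1 lower (-0.77). The XX count fell to 13 without XX WT replicate 1, to 12 without XX -KTS KO replicate 1 and to 15 without its replicate 2, and the XY count to 15 and 13 without XY -KTS KO replicates 1 and 2. Leaving out XX WT replicate 1, XX WT replicate 2, XX -KTS KO replicate 1 or replicate 2 ended at least 1 of the XX calls of Sema3d, Epha4, Sema5b, Efna5, Nrp1 and Slit3 (highest edgeR adjusted p over all alternatives from 0.0585 to 0.111), and in XY leaving out XY WT replicate 1 or 2 or XY -KTS KO replicate 1 or 2 did so for Sema5b, Efna5 and Nrp2 (0.0537 to 0.199). Nrp2 in XY also lost its call when all kept cells were summed.

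Fewer members, and also fewer of all genes, were called after loss of +KTS than after loss of -KTS. In XX +KTS KO against XX WT, 9 of 56 members passed (4 higher and 5 lower, 16.1%), where 5.02% of all genes did (2.35% higher and 2.68% lower), and in XY +KTS KO against XY WT, 19 passed (12 higher and 7 lower, 33.9%), where 12.3% of all genes did (6.06% higher and 6.28% lower). Across both sexes, 25 members passed in at least 1 (15.5% of all genes), 0 were higher in both (0.897% of all genes), 1 was lower in both (0.632%), and 2, Robo1 and Epha7, moved in opposite directions (0.344%). Sema5a, a transmembrane semaphorin, was the member that fell in both. It went from 4.60 and 4.73 CPM to 1.41 and 1.59 CPM in XX (3.11-fold, adjusted p = 0.0088) and from 12.2 and 14.9 CPM to 4.11 and 2.26 CPM in XY (4.26-fold, adjusted p = 0.00145). The mutant libraries of each sex lay below both WT libraries of that sex. The XX call of Sema5a ended when any single XX WT or XX +KTS KO library was left out.

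In XX +KTS KO the 2 SLIT ligands parted. Slit2 fell from 22.3 and 22.3 CPM to 6.64 and 7.32 CPM (3.19-fold, log2 fold change -1.68 ± 0.18, adjusted p = 0.00201), and Slit3 rose from 2.44 and 4.34 CPM to 7.09 and 10.5 CPM (2.58-fold, adjusted p = 0.0322). Robo1 rose from 5.78 and 6.35 CPM to 13.2 and 18.4 CPM (2.60-fold, adjusted p = 0.00513). Efnb1, an X-linked transmembrane ephrin, was at 68.0 and 78.3 CPM in WT and at 122 and 123 CPM in the mutant (1.68-fold, adjusted p = 0.00792). Efna1 fell from 18.7 and 17.7 CPM to 6.37 and 2.82 CPM (3.96-fold, or -1.99 on the log2 scale and -2.69 without XX +KTS KO replicate 1, adjusted p = 0.0178), and Nrp1 from 14.6 and 20.4 CPM to 3.56 and 6.22 CPM (3.59-fold, adjusted p = 0.0122). Epha7 fell from 39.0 and 45.7 CPM to 20.2 and 24.4 CPM (1.90-fold, adjusted p = 0.0241). In each of these genes the mutant libraries lay outside the WT range. The count was 2 and 4 without XX WT replicates 1 and 2, 3 without either XX +KTS KO library, 15 with DESeq2, 14 when only the compared groups were fitted and 4 when all kept cells were summed. Slit2 alone of the 7 named here kept its call in all these settings, while Robo1 lost it without XX WT replicate 1 (edgeR adjusted p = 0.0559) and the other 5 lost it without at least 1 of the 4 libraries (highest adjusted p over all alternatives from 0.0845 to 0.203). Efna1, Nrp1, Epha7 and Slit3 also lost it when all kept cells, endothelial ones included, were summed, where the log2 fold change of Efna1 was -0.91 and that of Nrp1 -1.06 (-1.84 in the somatic sums).

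In XY +KTS KO both ROBO receptors fell. Robo1 went from 28.4 and 34.3 CPM in XY WT to 11.1 and 12.4 CPM (2.67-fold, adjusted p = 0.00215), and Robo2 from 58.9 and 45.4 CPM to 21.8 and 9.09 CPM (3.38-fold, adjusted p = 0.013). Epha4 fell from 19.3 and 13.2 CPM to 4.13 and 1.78 CPM (5.53-fold, adjusted p = 0.00443), while the receptor Epha7 rose from 8.08 and 12.1 CPM to 21.7 and 24.9 CPM (2.30-fold, adjusted p = 0.00469). All these mutant values were outside the WT range, and for Robo2 and Epha4 the mutant libraries differed from each other by a larger ratio than the WT ones did. Without XY +KTS KO replicate 1 the log2 fold changes of Robo2 and Epha4 were -2.51 and -3.18, against -1.76 and -2.47 with it.

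Of the plexins, 5 of 8 passed in XY +KTS KO, beside the 12.3% of all genes. Plxna2, a receptor for class 3 and class 6 semaphorins, rose from 5.52 and 8.04 CPM to 14.9 and 15.2 CPM (2.23-fold, adjusted p = 0.022), and Plxna1, Plxna3 and Plxnb2 rose with log2 fold changes of 0.63, 0.82 and 0.61. Plxnc1, the receptor of SEMA7A, fell from 35.5 and 39.3 CPM to 17.7 and 7.66 CPM (2.95-fold, adjusted p = 0.0119), with a log2 fold change of -1.56 that was -2.27 without XY +KTS KO replicate 1. In XX +KTS KO it stood at 10.2 and 9.58 CPM against 23.7 and 22.2 CPM in WT and did not pass (log2 fold change -1.21, adjusted p = 0.0525).

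Among their ligands, Sema3a rose from 9.28 and 11.02 CPM to 34.6 and 17.2 CPM (2.55-fold, adjusted p = 0.0153) and Sema4b from 6.10 and 9.17 CPM to 20.1 and 12.8 CPM (2.15-fold, adjusted p = 0.0395). Sema6c, a transmembrane semaphorin, fell from 12.1 and 13.3 CPM to 7.53 and 5.39 CPM (1.97-fold, adjusted p = 0.00805). The XY count was 12 without XY +KTS KO replicate 1 and 22 without replicate 2, 6 and 12 without XY WT replicates 1 and 2, 12 when all kept cells were summed and 2 when only the compared groups were fitted. Robo1 and Sema5a passed in all of these. Leaving out XY WT replicate 1 ended the calls of Robo2, Sema3a, Plxna2 and Sema4b, leaving out XY +KTS KO replicate 1 ended those of Plxna2 and Sema4b (highest edgeR adjusted p over all settings from 0.0977 to 0.232), and fitting only the compared groups ended the calls of all named members except Robo1 and Sema5a. Summing all kept cells ended those of Sema4b and Sema6c.

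The mutants were also set against each other within each sex, since both were compared above with the same WT libraries. In XX, 27 members differed between -KTS KO and +KTS KO (16 higher and 11 lower in -KTS KO, 48.2%), with 18.5% of all genes called (8.53% higher and 9.94% lower), and in XY also 27 (14 higher and 13 lower), with 21.6% of all genes called (9.86% higher and 11.7% lower). Slit2 was 6.89-fold higher in XX -KTS KO than in XX +KTS KO (log2 fold change 2.78 ± 0.19, adjusted p = 1.86e-05), where the libraries held 52.8 and 43.3 CPM against 6.64 and 7.32 CPM. In XY the log2 difference was 2.01, from 40.8 and 46.7 CPM against 12.8 and 8.93 CPM. WT libraries of each sex lay between the mutants in XX and just above the +KTS KO ones in XY.

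Epha4 was 7.21-fold higher in XX -KTS KO (adjusted p = 0.000937) and 7.97-fold higher in XY -KTS KO (adjusted p = 0.000689) than in the +KTS KO of the same sex. Sema6a was 4.40-fold higher in XX (adjusted p = 0.000491) and 4.78-fold higher in XY (adjusted p = 0.000359). Sema7a, at 6.65 and 5.97 CPM in the XX +KTS KO libraries and 7.43 and 5.79 CPM in the XY ones, was 11.5-fold lower in XX -KTS KO (adjusted p = 0.001) and 12.8-fold lower in XY -KTS KO (adjusted p = 0.000765). The libraries of the mutants did not overlap in any of these. Efna3 in XX (4.05-fold higher, adjusted p = 0.000315), Robo2 in XY (4.13-fold higher, adjusted p = 0.00308) and Sema5b in XY (5.02-fold lower, adjusted p = 0.0029) completed the 5 members named per sex, and all 10 calls passed under every alternative run. Without XY +KTS KO replicate 1 the XY log2 differences were 3.71 for Epha4 (2.99 with it), 2.79 for Robo2 (2.04) and -1.63 for Sema5b (-2.33), and that of Sema7a was -4.39 without XY -KTS KO replicate 2 (-3.68) and in XX -4.30 without XX -KTS KO replicate 1 (-3.53), or -2.84 when all kept cells were summed. The XX count fell to 14 without XX +KTS KO replicate 1 and to 17 without XX -KTS KO replicate 1.

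In the WT sexes, 27 of 56 members differed (13 higher and 14 lower in XY, 48.2%), where 13.3% of all genes were called (6.99% higher and 6.33% lower), and the median absolute log2 fold change was 0.93 for the members and 0.32 for all genes. In XY WT both ROBO receptors were higher. Robo1 held 28.4 and 34.3 CPM against 5.78 and 6.35 CPM in XX WT (5.17-fold, adjusted p = 0.000145), and Robo2 held 58.9 and 45.4 CPM against 16.6 and 17.1 CPM (3.09-fold, adjusted p = 0.0149). Their ligand Slit2 was lower, at 13.3 and 14.8 CPM against 22.3 and 22.3 CPM (1.59-fold, adjusted p = 0.0354). Nrp2 at 9.78 and 6.19 CPM against 1.86 and 1.65 CPM (4.55-fold, adjusted p = 0.00858), Sema3d at 11.7 and 10.3 CPM against 1.71 and 2.05 CPM (5.83-fold, adjusted p = 0.00846), and Sema5a at 12.2 and 14.9 CPM against 4.60 and 4.73 CPM (2.90-fold, adjusted p = 0.00431) were higher in XY as well. For the genes higher in XY, no XX WT library reached an XY WT library.

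Of the ephrin system, Epha4 at 19.3 and 13.2 CPM against 3.33 and 5.48 CPM (3.68-fold, adjusted p = 0.0111) and the transmembrane ephrin Efnb2 at 18.9 and 22.1 CPM against 7.20 and 8.84 CPM (2.55-fold, adjusted p = 0.0287) were higher in XY WT. Efna1 at 2.86 and 3.89 CPM against 18.7 and 17.7 CPM (5.40-fold, adjusted p = 0.00364) and Epha7 at 8.08 and 12.1 CPM against 39.0 and 45.7 CPM (4.19-fold, adjusted p = 0.000303) were lower, as were Sema3c (2.65-fold, adjusted p = 0.0188) and, with smaller differences, Nrp1 and the plexins Plxna2, Plxna3 and Plxna4. Plxna3 is X-linked. The count fell to 10 without either XX WT library, to 8 without XY WT replicate 1 and to 17 when all kept cells were summed. Efna1, Epha7, Robo1 and Sema5a passed in every setting, although the log2 difference of Efna1, -2.43, was -1.11 when all kept cells were summed and -1.03 when doublets were kept too. In contrast, Sema3d, Nrp2, Epha4, Robo2, Sema3c and Efnb2 lost their calls without at least 1 of XX WT replicate 1, XX WT replicate 2, XY WT replicate 1 and XY WT replicate 2 (highest edgeR adjusted p over all alternatives from 0.0745 to 0.183). Nrp2 and Efnb2 also lost theirs when all kept cells were summed, where the log2 difference of Nrp2 was 0.81 (2.19 in the somatic sums).

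Within the mutants no member passed between the sexes. In XY -KTS KO against XX -KTS KO, 0 members were called by edgeR and 0 by DESeq2, with 0.0339% of all genes called by edgeR (0.0226% higher and 0.0113% lower), and 1 member, Epha6, had an unadjusted p under 0.05. In XY +KTS KO against XX +KTS KO, 0 were called by either tool, again with 0.0339% of all genes (0.0226% higher and 0.0113% lower), and 6 members had an unadjusted p under 0.05. Without XY +KTS KO replicate 2 that count of calls was 3. The 27 members called in WT had log2 differences from -2.43 to 2.86 there, none of them within 0.5 of 0. The same 27 ran from -1.75 to 0.54 in -KTS KO, with 24 within 0.5, and from -0.43 to 1.08 in +KTS KO, with 22 within 0.5. They were chosen by the WT call, and of all 2359 genes called between the WT sexes 81.4% lay within 0.5 in -KTS KO and 78.6% in +KTS KO (88.9% and 81.5% of the 27), so the shares of the members were near those of all such genes. Over all tested genes and members alike the median absolute difference between the sexes in -KTS KO was small, 0.18 and 0.19. In +KTS KO it was 0.156 for all genes and 0.234 for the members. The signed median there was 0.015 for all genes and 0.211 for the members, toward XY.

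**Figure D3:**
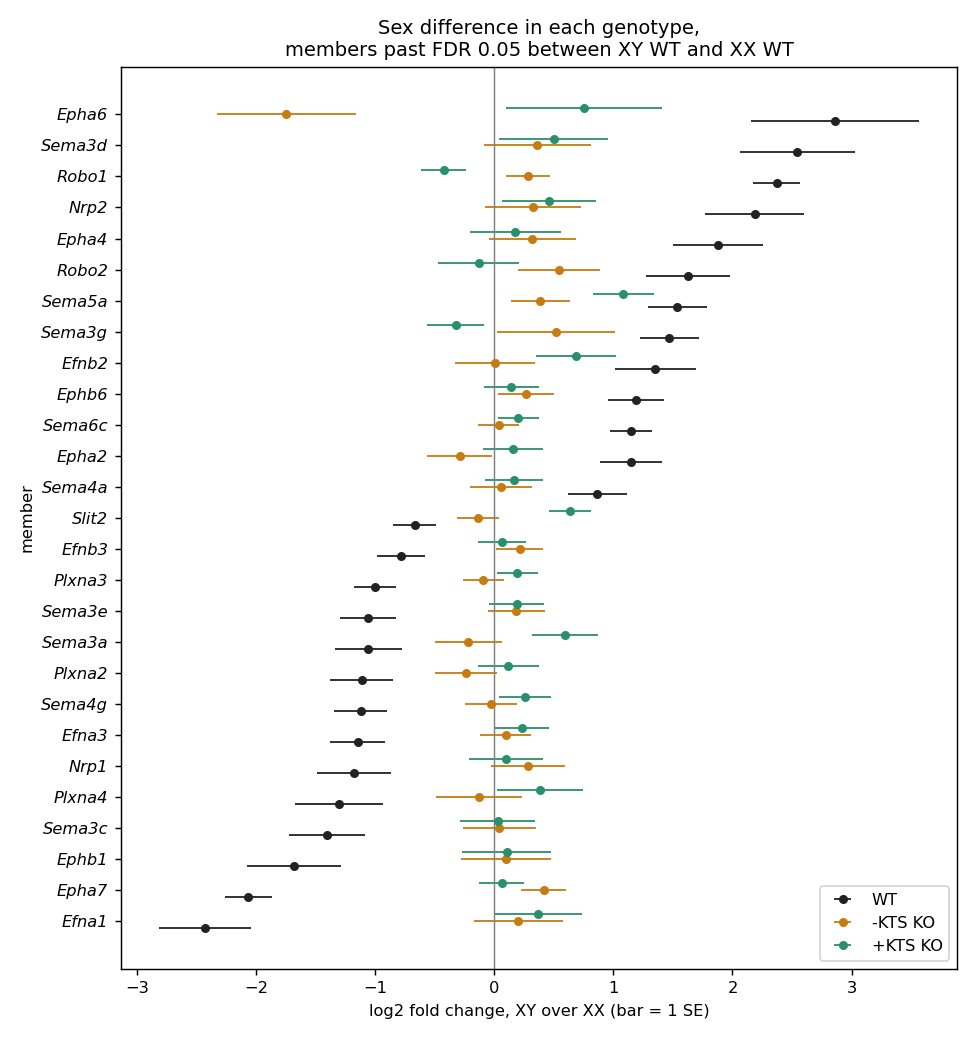
Difference between XY and XX (log2 fold change of somatic sums, horizontal axis, with bars of 1 SE) for the 27 members that passed an FDR of 0.05 in WT, shown for WT, -KTS KO and +KTS KO. The members were chosen by the WT values, which run from -2.43 to 2.86, while the mutant points lie mostly within 0.5 of 0.

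The difference itself was tested as an interaction, the effect of a mutant in XY minus its effect in XX. For -KTS KO, 5 members passed (2 higher and 3 lower, 8.93%), with 3.04% of all genes called (1.26% higher and 1.78% lower), and for +KTS KO 10 passed (8 higher and 2 lower, 17.9%), with 3.87% of all genes (1.82% higher and 2.04% lower). Robo1 and Epha7 passed for both mutants and under every alternative run. For Robo1 the interaction was -2.09 ± 0.27 on the log2 scale for -KTS KO (edgeR adjusted p = 0.00584) and -2.80 ± 0.27 for +KTS KO (0.00131). For Epha7 it was 2.48 ± 0.27 for -KTS KO (edgeR adjusted p = 0.00363) and 2.13 ± 0.27 for +KTS KO (0.00467). In Robo1 the +KTS KO raised the low XX level and lowered the high XY level, and Epha7 showed the reverse arrangement, with all 8 mutant libraries at 17.1 to 24.9 CPM between the WT sexes. These interactions use the WT sex difference, so they are not independent of it. For -KTS KO the count was 2 without any single library used except XY WT replicate 2, without which it was 4. For +KTS KO it was 17 without XY +KTS KO replicate 2, 12 without its replicate 1, and 2 to 6 without any of the WT or XX +KTS KO libraries.

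In WT gonads the members were spread over cell classes, given here without a test because the cells were clustered on these genes too. Clusters without a class name are not covered. They held 1348 of 5349 and 1849 of 5744 somatic cells in the XX WT libraries. In the XY WT libraries they held 2569 of 6739 and 2199 of 4710, among them clusters 4 and 14. Sertoli-like cells of XY WT held Robo1 at 36.4 and 40.7 CPM, Sema5a at 26.5 and 39.8 CPM, Sema6c at 34.1 and 33.8 CPM and Sema7a at 11.9 and 14.8 CPM, with little Slit2 (1.26 and 2.59 CPM) and Robo2 (5.50 and 7.26 CPM). Pre-granulosa-like cells of XX WT held Efna1 at 29.7 and 29.1 CPM, Epha7 at 36.3 and 49.4 CPM, Plxna4 at 31.9 and 40.5 CPM and Nrp1 at 20.7 and 27.3 CPM, and little Robo1 (3.55 and 3.95 CPM). Efna1 and Robo1, which differed between the WT sexes in opposite directions, were each high in the supporting cells of the sex that had more of them. Robo1 was not particular to Sertoli-like cells, which were 1766 of 6739 and 1212 of 4710 somatic cells in the XY WT libraries. The somatic sums of these libraries held Robo1 at 28.4 and 34.3 CPM.

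Interstitial progenitor-like cells held Robo2 at 84.4 and 78.6 CPM in XX WT, with 75.1 and 80.3 CPM in XY WT, and Slit2 at 29.5 and 27.5 CPM and at 14.4 and 19.8 CPM, so that ligand and receptor were found in the same class. Epha7 in that class was at 47.0 and 68.0 CPM in XX WT against 6.74 and 11.5 CPM in XY WT, and Sema3d at 2.54 and 4.14 CPM and at 15.2 and 23.6 CPM. Cluster 22 held most of the class in XX WT and cluster 11 in XY WT, so the class was not made of the same cluster in both sexes. Cluster 6 had the highest interstitial progenitor score of all clusters (1.54) but got no class name. Its 606 XX WT and 286 XY WT cells are therefore not in this class.

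**Figure D4:**
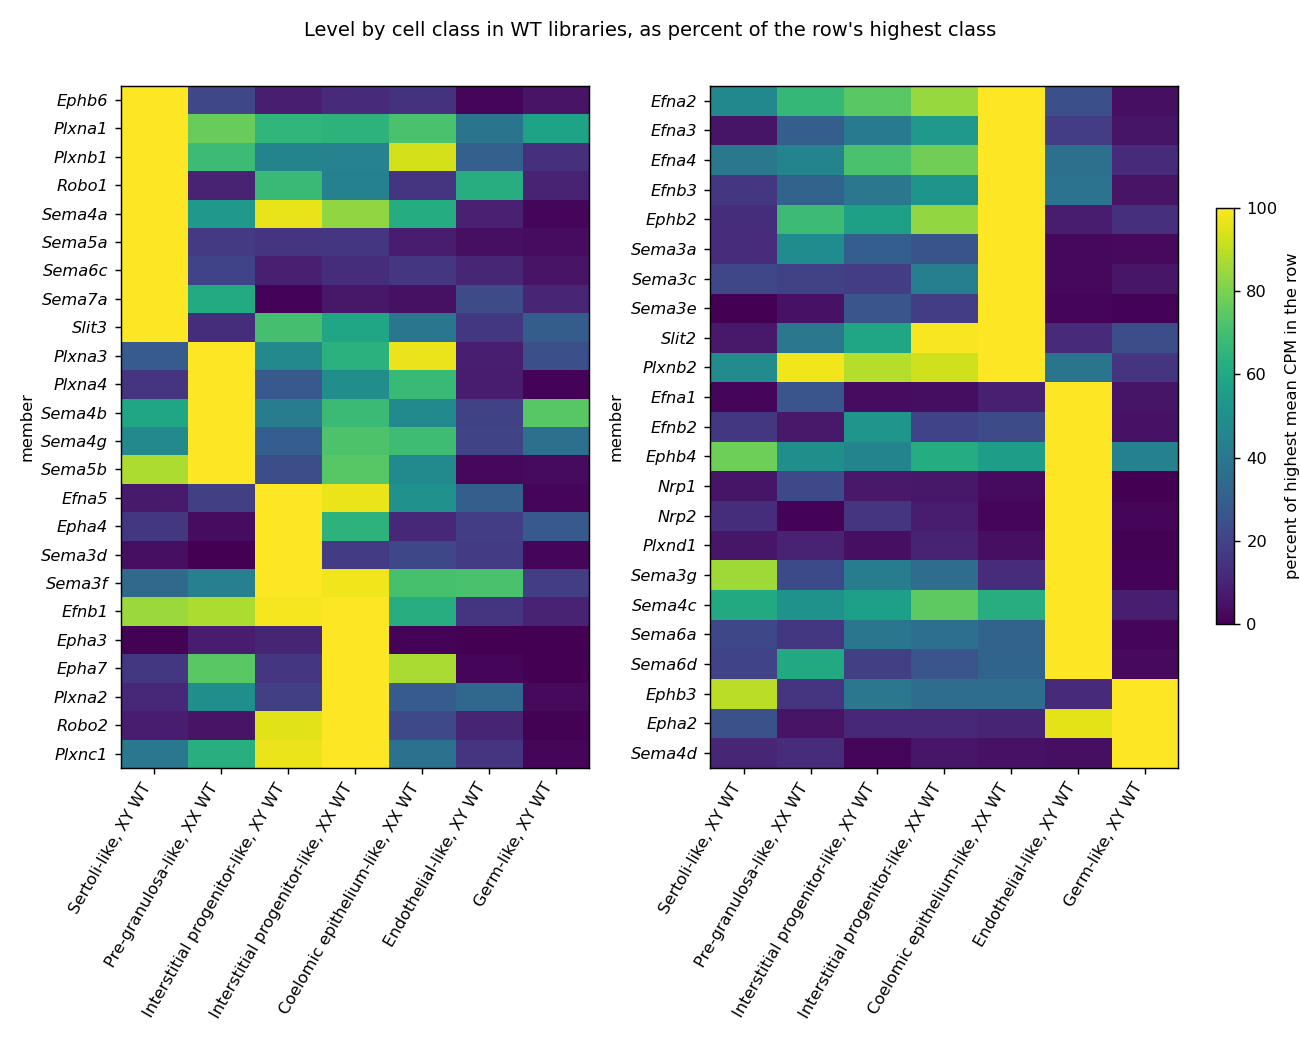
Levels of 47 members with at least 5 CPM in some class, in 7 classes of WT cells (columns), as a percent of the highest class in each row (colour scale). Cells of unnamed clusters are not shown. Sertoli-like cells are highest for Sema6c, pre-granulosa-like cells for Plxna4 among the classes shown, and endothelial-like cells for Plxnd1.

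Endothelial-like cells, which were set aside from the sums, carried their own set. Over 11 libraries with at least 50 such cells, Plxnd1, the plexin of vessels, ran from 159 to 459 CPM (median 265), Nrp1 from 87.7 to 185 CPM (median 134), Efna1 from 95.04 to 208 CPM (median 167), and the vein receptor Ephb4 from 24.6 to 53.9 CPM (median 42.4). Sema3g ran from 4.35 to 15.5 CPM (median 12.2) and was present in the mutants, with a mean of 11.1 CPM in XY -KTS KO, while the somatic sums of that group held 0.0569 and 0.0488 CPM. Slit2 was low there, at 0.851 to 4.35 CPM. Endothelial markers in the somatic sums were at 39.0 to 57.1 CPM in all groups.

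Within coelomic epithelium-like cells, the surface layer from which supporting cells arise, several of the differences could be seen again. This class was read in the mutants after the data had been seen. Cluster 16 held it in WT, cluster 7 in -KTS KO and cluster 8 in +KTS KO, and XY WT had only 58 and 185 such cells. Slit2 was at 34.6 and 23.0 CPM in XX WT, 39.7 and 31.9 CPM in XX -KTS KO and 4.09 and 4.52 CPM in XX +KTS KO, so that the +KTS KO libraries were low and the others overlapped. Sema6a was at 6.46 and 7.91 CPM in XX WT, 29.1 and 23.7 CPM in XX -KTS KO and 3.81 and 8.58 CPM in XX +KTS KO, and the XY -KTS KO libraries held 29.8 and 42.9 CPM. Sema3a was at 39.7 and 33.5 CPM in XX WT and at 8.90 to 12.4 CPM in the 4 -KTS KO libraries. Plxnc1 was at 16.2 and 15.6 CPM in XX WT, 27.0 and 32.6 CPM in XX -KTS KO, and 7.66 to 10.3 CPM in the 4 +KTS KO libraries. Interstitial progenitor-like cells of -KTS KO, in clusters 1 and 13, also held more Sema6a (42.5 and 38.2 CPM in XX, 43.8 and 61.0 CPM in XY) than those of WT (5.07 to 11.4 CPM) and more Slit3 (15.6 to 25.4 CPM against 2.54 to 5.32 CPM). The WT side leaves out the unnamed cluster 6 and was made mostly of other clusters than the -KTS KO side.

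**Figure D5:**
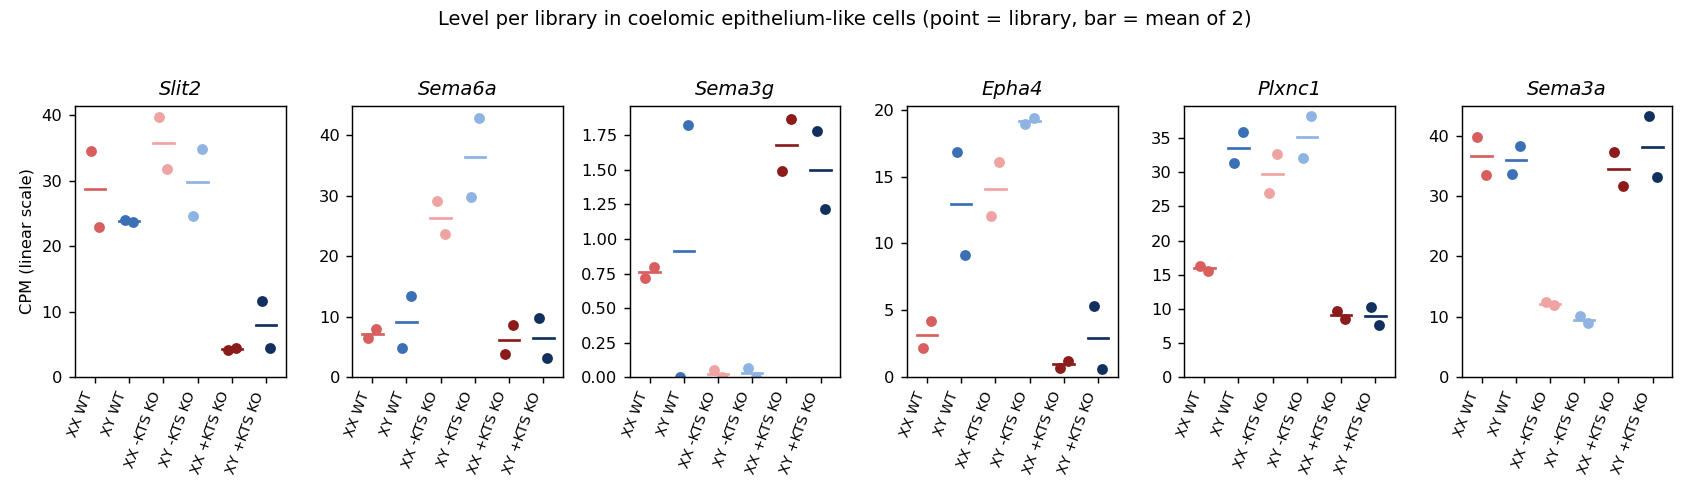
Level of 6 members in CPM (linear axis) in coelomic epithelium-like cells of each library, with 1 point per library and a bar at the mean of 2. Slit2 and Plxnc1 are lowest in the +KTS KO libraries, and Sema6a is highest in the -KTS KO libraries.

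The share of cells with a UMI moved with the sums. It was counted from the same UMIs and, at so few UMIs per cell, largely follows the level, so it is no separate evidence. With every somatic cell thinned to 5000 UMIs, a Slit2 UMI was found in 10.4% ± 0.077 (SD, n = 2) of XX WT cells, 20.1% ± 0.78 of XX -KTS KO cells and 3.38% ± 0.62 of XX +KTS KO cells, against 0.777% to 1.98% of endothelial-like cells in the 6 groups. In XY the shares were 5.87% ± 0.97, 18.4% ± 2.0 and 4.76% ± 0.56. Unthinned, XX shares of Slit2 were 21.0%, 42.8% and 8.12%, and XY shares 12.7%, 40.4% and 9.40%. An Epha7 UMI was found in 18.0% ± 2.1 of XX WT cells and 4.79% ± 2.0 of XY WT cells, and in 7.62% ± 0.31 and 10.8% ± 0.55 of XX and XY -KTS KO cells and 10.3% ± 1.9 and 10.9% ± 0.93 of XX and XY +KTS KO cells, against at most 0.588% of endothelial-like cells. Unthinned, these shares were 36.5%, 10.4%, 20.3%, 24.5%, 23.6% and 21.6%. Thinning left out 443 to 1876 somatic cells per group, most in XY +KTS KO, and median depths were 10994 to 14752.5 UMIs in somatic and 14378 to 19252 in endothelial-like cells.

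Other genes of these pathways were counted from lists of effectors and partners. Of 13 tested netrin, netrin receptor and repulsive guidance genes, 5 were higher and 1 lower in XX -KTS KO, and 2 higher and 3 lower in XY -KTS KO, beside 16.2% and 23.4% of all genes called. Unc5d, a netrin receptor, was at 0.222 and 0.273 CPM in XX WT and 4.70 and 5.64 CPM in XX -KTS KO (log2 fold change 4.37), and at 0.13 and 0.0766 against 4.996 and 5.39 CPM in XY (5.62). Unc5c, of the same family, rose from 8.91 and 10.7 to 30.7 and 24.7 CPM in XX (1.501) and from 12.04 and 11.4 to 29.6 and 33.5 CPM in XY (1.43). The secreted netrin Ntn4, the receptor Unc5a and Ntn1, named after their values were seen since they lay under 5 CPM, went the other way. Ntn4 fell from 1.26 and 1.61 to 0.0736 and 0.0178 CPM in XX -KTS KO, and from 0.752 and 0.689 to 0.0427 and 0.0122 CPM in XY. In XY, Unc5a fell from 0.997 and 0.230 to 0.0854 and 0.0366 CPM and Ntn1 from 0.752 and 0.934 to 0.327 and 0.207 CPM. Of 18 effectors of Eph receptors and ephrins, 3 were higher and 6 lower in XX -KTS KO and 1 higher and 6 lower in XY -KTS KO, with median log2 fold changes of -0.17 and -0.28, and in +KTS KO 4 and 2 were higher and 0 lower, beside 5.02% and 12.3% of all genes called in XX and XY. Adam10, a protease that cleaves ephrins, fell in both -KTS KO sexes, with log2 fold changes of -0.81 and -0.55.

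Of 21 intracellular effectors of plexins, 2, 4, 2 and 2 passed in the XX -KTS KO, XY -KTS KO, XX +KTS KO and XY +KTS KO comparisons, with median log2 fold changes of 0.07, 0.11, 0.02 and 0.21. Rnd3, a GTPase that binds plexins, rose in XX -KTS KO from 32.3 and 32.0 to 104 and 90.1 CPM (1.59), and Fyn, a kinase downstream of plexins, fell in XY -KTS KO from 71.1 and 85.9 to 25.1 and 26.8 CPM (-1.60). The shares of all genes called, in the same order, were 16.2%, 23.4%, 5.02% and 12.3%. The 8 other SLIT and ROBO genes and effectors gave 0, 4, 0 and 1 calls in the same order, among them Srgap3, a partner of ROBO1, in XY -KTS KO (log2 fold change 1.47). The 11 tested co-receptors and other ligands of neuropilins gave 1, 2, 2 and 2. In WT, Nck2, an adaptor of Eph receptors, was higher in XY at 21.7 and 19.8 CPM against 11.7 and 9.21 CPM (1.00).

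Across the 4 mutant comparisons with WT and the WT sex comparison, 42 members passed at least once (42 of 56 tested), where 37.2% of all genes did. The other 14 tested members passed in none: Efna2, Epha1, Epha5, Epha8, Epha10, Ephb2, Ephb4, Plxnb1, Plxnd1, Sema4c, Sema4d, Sema4f, Sema6b and Sema6d. The remaining calls of members not described above were Epha6 and Ephb3 in XX -KTS KO (both higher), Efna4 in both -KTS KO sexes (0.59 and 0.78), Ephb1, Epha3 and Sema4g (higher) and Sema3f, Sema6c, Sema5a, Ephb6 and Epha2 (lower) in XY -KTS KO, Sema3g in XX +KTS KO (2.00-fold higher), and Ephb1, Epha3, Efna3, Sema3e and Efnb3 (higher) and Ephb3 (lower) in XY +KTS KO. In WT these were Epha6, Sema3g, Ephb6, Sema6c, Epha2 and Sema4a (higher in XY) and Efnb3, Sema3e, Sema3a, Sema4g, Efna3 and Ephb1 (lower).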

How the data were processed

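The deposited values are raw UMI counts that the authors obtained with Cell Ranger 6.0 on mm10, per the submitters' processing notes. Barcodes needed 1000 or more genes and no more than 10% of UMIs from mitochondria, the highest-scoring 0.8% per 1000 barcodes by Scrublet (scanpy 1.11.5, Python 3.11.15) were removed as doublets, and cells were clustered in Seurat 5.3.0 after sctransform 0.4.2 (3000 variable genes, 50 components, 20 neighbours, resolution 0.8). Clusters were called after markers, and those of germ, endothelial, immune, blood and mesonephric duct cells were set aside. The counts of the remaining somatic cells were summed per library and tested over 17716 genes in 12 libraries with the edgeR 4.0.16 quasi-likelihood test (R 4.3.3, TMM, Benjamini-Hochberg, FDR 0.05), and DESeq2 1.42.0 was an alternative. Library totals of somatic UMIs were 57073030 to 99629558, and intervals cover counting error only.

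The members and lists were chosen with earlier results of these data known. Values per library are given for at most 10 members per comparison past the FDR with at least 5 CPM in the higher group (5 in the other comparisons), by largest change. Values of those members in other comparisons, of Sema3g and of members in cell classes were added after they were seen. Scripts were tested on simulated data. Alternatives were other size factors, no filter, all kept cells, doublets kept, log-normalized clusters, the compared groups only, a replicate block and each library left out. Class levels are descriptions of classes with at least 50 cells per library.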

Additional observations from a re-analysis of the deposited data

Results flagged for a closer look

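These are the members whose response to a mutation differed between XY and XX by the interaction test of edgeR (effect in XY minus effect in XX, log2 scale, Benjamini-Hochberg adjusted). For -KTS KO they were Efna1 (2.64 ± 0.53, adjusted p = 0.0302), Epha6 (-4.61 ± 0.92, adjusted p = 0.0288, low counts), Epha7 (2.48 ± 0.27, adjusted p = 0.00363), Robo1 (-2.09 ± 0.27, adjusted p = 0.00584) and Sema6c (-1.11 ± 0.25, adjusted p = 0.0428). For +KTS KO they were Efna1 (2.80 ± 0.53, adjusted p = 0.0223), Efna3 (1.38 ± 0.32, adjusted p = 0.0453), Epha3 (2.44 ± 0.58, adjusted p = 0.049), Epha7 (2.13 ± 0.27, adjusted p = 0.00467), Plxna3 (1.19 ± 0.24, adjusted p = 0.03, X-linked), Robo1 (-2.80 ± 0.27, adjusted p = 0.00131), Sema3a (1.65 ± 0.39, adjusted p = 0.0495), Sema3g (-1.79 ± 0.35, adjusted p = 0.0239), Sema4g (1.38 ± 0.31, adjusted p = 0.0416) and Slit2 (1.31 ± 0.25, adjusted p = 0.0246). Robo1 and Epha7 passed under all 17 alternatives for both mutants. Efna1 lost its call under 9 of 17 for -KTS KO and 7 of 17 for +KTS KO, with values of 1.34 and 1.01 when all kept cells were summed and, for +KTS KO, 3.50 without XX +KTS KO replicate 1. Sema3a lost its call under 12 of 17 alternatives (1.06 without XY +KTS KO replicate 1), and Sema4g and Sema6c under 11 of 17 each. The other members here were followed under the alternatives only as part of the counts. With all kept cells, and with doublets kept too, only Robo1 and Epha7 stayed called in either set, so these others lost their calls there. Both sets share the WT libraries and thereby the WT sex difference.

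The effect of Efna1 in XX was a fall in both mutants, where XY levels were low in WT already. The XY +KTS KO libraries, on which the +KTS KO set rests, stood apart from each other, and their part in these values was tested only by leaving each out.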

How the results depend on the processing

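Of 894 values for 66 named results under alternatives, 757 kept direction and side of the threshold, 137 kept direction but missed it, and 0 reversed. The cause was not tested. Counts of members past the threshold moved over 1.5 times as follows. In XX +KTS KO against WT (9) the count was 15 with DESeq2, 4 with all kept cells, 4 with doublets kept and 14 with the compared groups only. In XY +KTS KO against WT (19) it was 12 with all kept cells and 2 with the compared groups only. In WT (27) it was 17 with all kept cells and 17 with doublets kept. For the -KTS KO interaction (5) it was 19 with DESeq2, 12 without the filter, 2 with all kept cells, 2 with doublets kept and 12 with the compared groups only, and for the +KTS KO interaction (10) 22, 19, 2, 2 and 2. The median share of cells with a member UMI was 3.26% thinned and 8.06% unthinned.

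Leaving out 1 library gave 12 to 18 calls in XX -KTS KO (23), 13 to 20 in XY -KTS KO (24), 2 to 4 in XX +KTS KO, 6 to 22 in XY +KTS KO, 8 to 22 in WT, 14 to 21 and 20 to 30 between the mutants in XX and XY (27 each), 0 to 3 between the sexes in +KTS KO, and 2 to 4 and 2 to 17 for the -KTS KO and +KTS KO interactions. With the replicate block the counts were 22, 23, 8, 13, 27, 25, 25, 0, 0, 4 and 7, in the order of the -KTS KO comparisons with WT (XX, XY), the +KTS KO comparisons (XX, XY), WT, the mutants against each other (XX, XY), the sexes within -KTS KO and +KTS KO, and the interactions. The block ended 4 of 66 named calls, Sema4b in XY +KTS KO (edgeR adjusted p = 0.0564) and the interactions of Sema3a (0.0506), Sema4g (0.0626) and Sema6c (0.0665). Deviations of same-numbered replicates correlated from -0.28 to 0.32 over the 15 pairs of groups. They were positive among XX WT, XY WT and XY -KTS KO (0.11, 0.32 and 0.32) but not in every pair of groups, and the labels name no shared litter or batch, so the numbers were not taken to pair the libraries. Leaving out 3 clusters, chosen after seeing the data, ended none.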
